A study of Mus musculus with 18 samples.

Results

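The proteasome is the protease that degrades proteins tagged with ubiquitin. In these data its subunit genes were taken as every gene of the count table whose symbol is Psma, Psmb, Psmc or Psmd followed by a number, apart from the immunoproteasome genes Psmb8, Psmb9 and Psmb10. That gave 36 of the 55487 genes in the table, and 35 of them had enough reads to be tested. The barrel-shaped core particle is built from alpha rings (Psma genes), which gate entry, and beta rings (Psmb genes), which hold the proteolytic sites. The regulatory particle that caps it has a base with a ring of ATPases (Psmc genes), which unfold substrates, and a lid that removes ubiquitin chains, both with further Psmd subunits. Psmd5, Psmd9 and Psmd10 encode chaperones that help to assemble the base and are not part of the finished particle. In many cell types a shortage of proteasome activity raises the subunit genes together through the transcription factor Nfe2l1, and oxidative stress is known to act on the proteasome and on its regulation.

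Messenger RNA was sequenced from primary mouse Leydig cells, the steroid-producing cells of the testis, in 6 groups of 3 libraries. In the first arm the cells carried an siRNA against Prdx1, the gene for the peroxide-degrading enzyme peroxiredoxin 1, and were given H2O2 and then fluvastatin (siprdx1+H2O2+FV), H2O2 alone (siprdx1+H2O2) or neither (siprdx1). In the second arm they carried a control siRNA and the same treatments (siNC+H2O2+FV, siNC+H2O2 and siNC). H2O2 was given at 200 µM for 30 min, and the last step took 6 h in either 5 µM fluvastatin, a statin, or 0.1% DMSO. The labels record no DMSO for the fluvastatin groups, so the effects of fluvastatin and of vehicle cannot be told apart, and every fluvastatin group had H2O2 first. All 6 groups were transfected. The labels call the replicates biological without saying whether they came from separate animals, so p-values measure the spread between these libraries.

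The libraries held 15201530 to 23898435 counts, with a biological variation shared by all genes of 7.01%. Levels are in CPM, the counts scaled to library sizes that TMM adjusts. Prdx1 averaged 542, 524 and 464 CPM in siprdx1+H2O2+FV, siprdx1+H2O2 and siprdx1, against 1504, 1632 and 1327 CPM in siNC+H2O2+FV, siNC+H2O2 and siNC, so the targeted gene was lower with its siRNA in each treatment, with no overlap. Of 8 Leydig markers, Cyp11a1 had group means of 624 to 789 CPM and Star of 173 to 502 CPM, while Cyp17a1 stayed at or below 0.0540 CPM and Hsd17b3 at or below 0.134 CPM. The macrophage marker Lyz2 had group means of 5218 to 6505 CPM and the fibroblast marker Col1a1 of 3069 to 4363 CPM. In such bulk cultures fewer cells of a type and less RNA per cell cannot be told apart.

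Summed over the 35 tested genes, the subunits took 4092 ± 5.57, 3895 ± 44.4 and 3601 ± 39.7 CPM in siprdx1+H2O2+FV, siprdx1+H2O2 and siprdx1, and 3893 ± 76.1, 3913 ± 67.9 and 3529 ± 150 CPM in siNC+H2O2+FV, siNC+H2O2 and siNC (SD, n = 3 each). Every library with H2O2 stood above every library without it. As a share of raw counts the means were 0.390%, 0.398% and 0.378% in siprdx1+H2O2+FV, siprdx1+H2O2 and siprdx1, and 0.367%, 0.396% and 0.361% in siNC+H2O2+FV, siNC+H2O2 and siNC. On that scale both fluvastatin groups were below the H2O2 groups of their arm, with TMM factors of 0.941 to 0.959 in fluvastatin libraries and 1.01 to 1.05 in the others. Scaling by library size alone shifted the median of all genes by -0.10 on the log2 scale in both comparisons of fluvastatin with H2O2 alone, and by -0.12 in siNC and -0.14 in siprdx1 for H2O2 plus fluvastatin. Changes are therefore given beside the median of all genes tested.

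**Figure D1:**
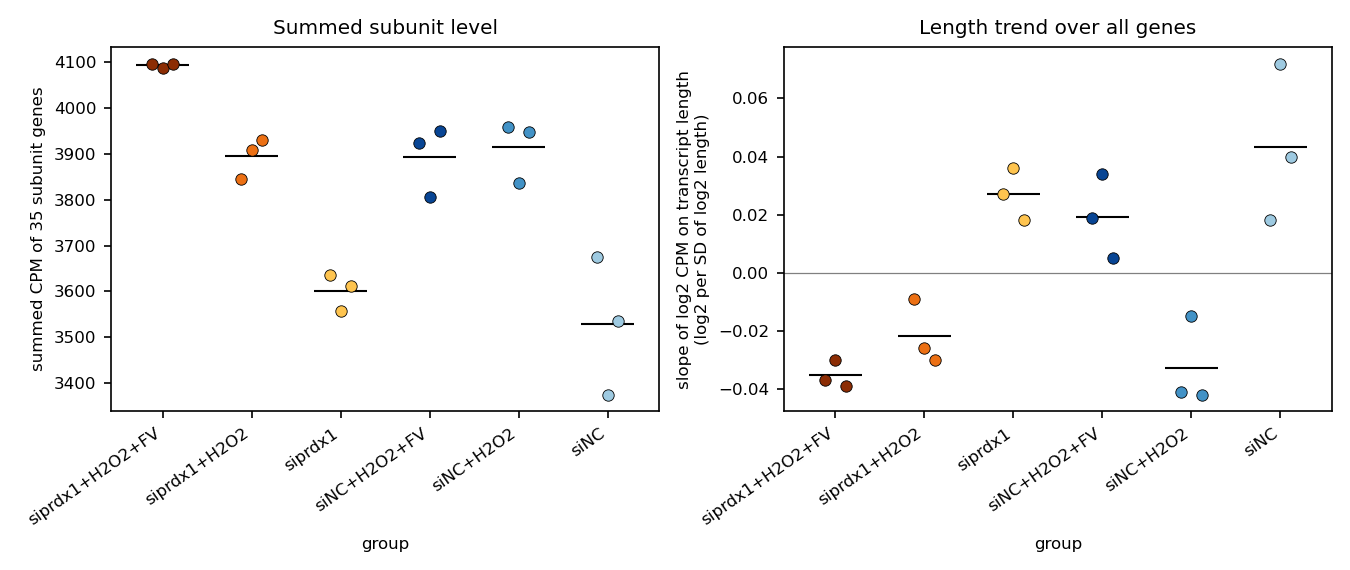
Left, summed CPM of the 35 tested subunit genes in each library (points, with group means as lines), on an axis that does not start at 0. Right, the slope on log2 transcript length (per SD of log2 length, fitted together with GC content) in the same libraries, over genes averaging above 5 CPM. The values fitted were log2 CPM minus the mean of each gene over all libraries. The 3 siprdx1+H2O2+FV libraries lie between 4086 and 4096 CPM and the siNC libraries between 3375 and 3676 CPM, and the 3 siNC libraries have length slopes of 0.018 to 0.072 where the siNC+H2O2 libraries have -0.042 to -0.015.

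Per kilobase of the longest protein-coding transcript, the levels of 34 subunits over all libraries lay between 11.9 and 163 CPM per kb. The lid gene Psmd8 was the highest at 163 CPM per kb, with 141 to 182 across libraries, followed by the beta ring genes Psmb4 at 137 and Psmb6 at 134, and the ranges of these 3 genes over libraries overlapped one another. The assembly chaperones Psmd5, Psmd10 and Psmd9 stood low, at 16.3, 14.0 and 11.9 CPM per kb. Among the catalytic subunits, Psmb6, which carries the caspase-like site, and Psmb7, which carries the trypsin-like site, were at 134 and 91.0 CPM per kb. Psmb5, which carries the chymotrypsin-like site, was at 49.5. Per kilobase of all annotated exons, Psmb6, Psmb7 and Psmb5 were at 57.2, 30.9 and 49.5, and Psmd8 stayed highest at 106. The order below Psmd8 thus depends on the length used. Psma8, the alpha subunit of germ cell proteasomes, was at 0.642 CPM per kb with 409 counts over the 18 libraries, and the germ cell markers Ddx4, Dazl, Prm1 and Tnp1 had group means of at most 0.520, 0.177, 0.0438 and 0.0306 CPM. Psmb11, the catalytic subunit of the thymus proteasome, had 20 counts in all and was above 0 in 10 libraries; it was not tested.

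Most subunits varied little between replicates. The median coefficient of variation within a group was 2.20% for Psmd7, but 14.48% for Psmb5, 12.4% for Psma5 and 17.3% for Psma8. Psmb5, at 45.4 CPM on average in siprdx1+H2O2, had 34.0, 55.2 and 47.0 CPM in the 3 libraries of that group. Its lowest and highest library also differed in their trend with GC content, taken on log2 CPM minus each gene's mean over all libraries. That slope on GC per SD was -0.082 in the library of 34.0 CPM and 0.087 in the library of 55.2 CPM, and the Psmb5 transcript is 56.6% GC.

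**Figure D2:**
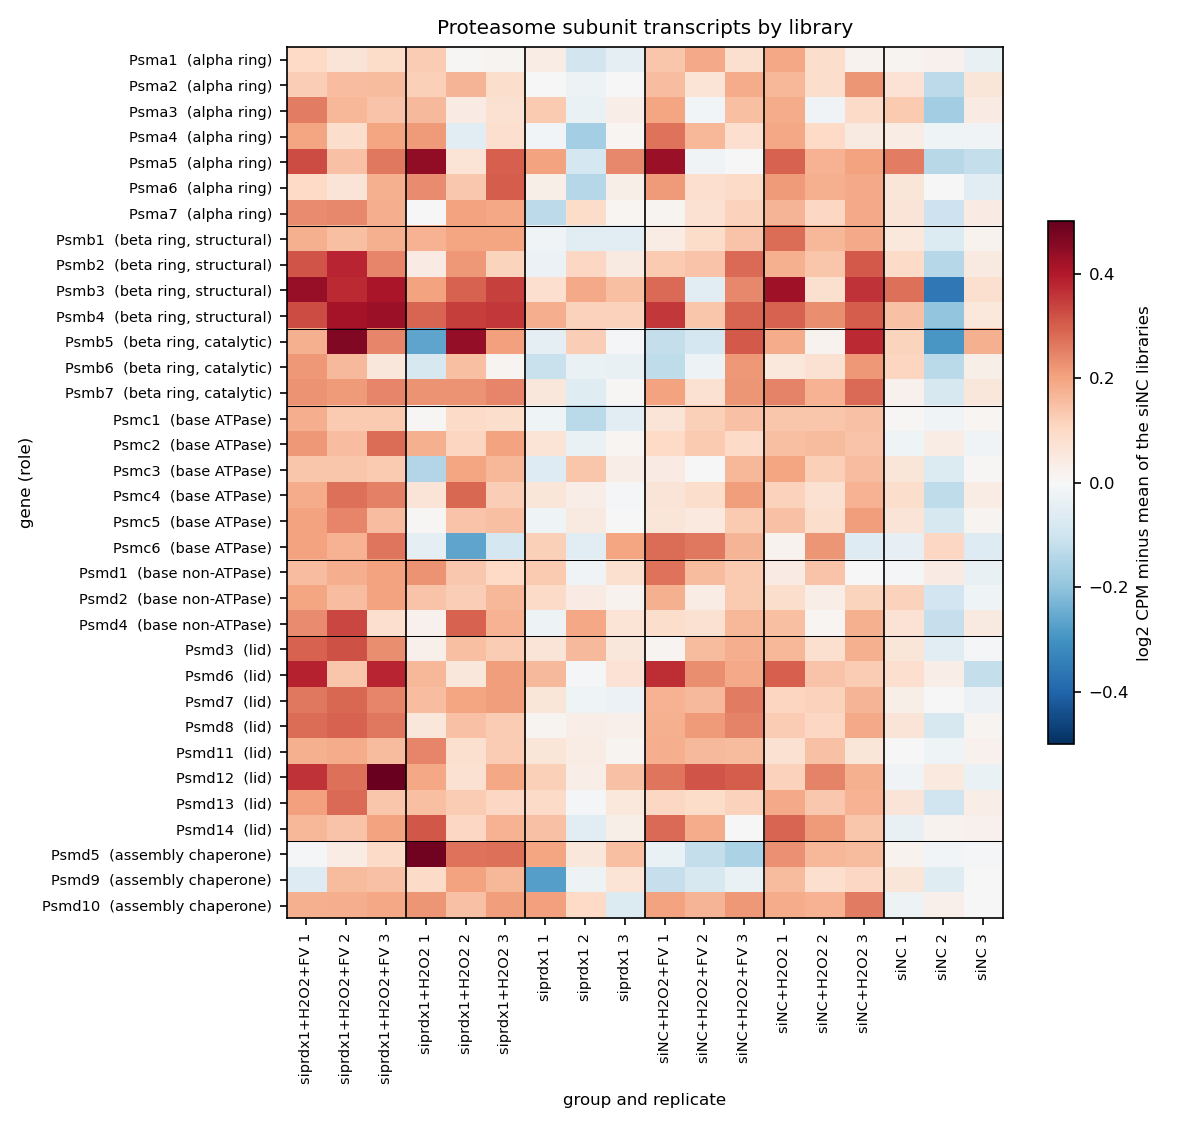
Log2 CPM of 34 subunit genes (rows, grouped by role) in the 18 libraries (columns, grouped), minus the mean of the 3 siNC libraries; Psma8 is left out for its low level, and the scale stops at 0.5 on either side. Most rows are higher in the libraries with H2O2, Psmd5 is lower in the fluvastatin libraries than in the H2O2 libraries of each arm, and Psmb5 and Psmb3 are low in siNC replicate 2.

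Promoters are shown for 5 subunits on which the results below turn, as the 250 bases before and 50 bases after the start given by RefSeq for GRCm38.p6, in the direction of transcription. Psmb5 and Psmb6 are catalytic, Psmd12 had the smallest adjusted p after H2O2 plus fluvastatin in siNC, Psmd5 fell with fluvastatin, and Psmb4 rose with H2O2 in siNC. Capitals mark matches on either strand to TGACNNNGC, the core of the antioxidant response element that Nfe2l1 and Nfe2l2 bind, and to its variant TGAGNNNGC. The windows are chr14:54617946-54618245 on the minus strand for Psmb5, chr11:70525107-70525406 on the plus strand for Psmb6, chr11:107479278-107479577 on the plus strand for Psmd12, chr2:34870913-34871212 on the minus strand for Psmd5 and chr3:94886909-94887208 on the minus strand for Psmb4.
Psmb5: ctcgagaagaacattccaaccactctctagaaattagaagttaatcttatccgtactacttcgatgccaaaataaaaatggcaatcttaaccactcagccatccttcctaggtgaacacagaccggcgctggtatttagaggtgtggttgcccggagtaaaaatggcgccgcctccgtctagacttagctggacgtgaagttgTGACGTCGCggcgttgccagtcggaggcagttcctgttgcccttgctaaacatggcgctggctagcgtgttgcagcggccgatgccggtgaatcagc
Psmb6: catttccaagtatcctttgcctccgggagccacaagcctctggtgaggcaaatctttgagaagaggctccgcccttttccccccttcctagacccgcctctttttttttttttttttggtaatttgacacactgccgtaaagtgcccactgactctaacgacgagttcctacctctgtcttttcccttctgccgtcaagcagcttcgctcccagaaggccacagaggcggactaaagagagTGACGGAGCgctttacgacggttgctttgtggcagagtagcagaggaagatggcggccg
Psmd12: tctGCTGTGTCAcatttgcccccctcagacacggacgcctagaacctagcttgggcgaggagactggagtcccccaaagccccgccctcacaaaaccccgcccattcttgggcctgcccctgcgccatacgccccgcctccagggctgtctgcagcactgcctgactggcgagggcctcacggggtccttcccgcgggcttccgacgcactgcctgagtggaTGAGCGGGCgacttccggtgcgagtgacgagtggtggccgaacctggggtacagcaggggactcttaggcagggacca
Psmd5: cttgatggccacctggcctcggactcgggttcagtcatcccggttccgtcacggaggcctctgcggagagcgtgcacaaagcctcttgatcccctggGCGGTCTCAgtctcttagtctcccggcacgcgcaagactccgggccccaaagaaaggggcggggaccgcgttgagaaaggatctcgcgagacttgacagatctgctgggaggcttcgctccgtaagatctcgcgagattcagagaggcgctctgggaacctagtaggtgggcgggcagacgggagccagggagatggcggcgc
Psmb4: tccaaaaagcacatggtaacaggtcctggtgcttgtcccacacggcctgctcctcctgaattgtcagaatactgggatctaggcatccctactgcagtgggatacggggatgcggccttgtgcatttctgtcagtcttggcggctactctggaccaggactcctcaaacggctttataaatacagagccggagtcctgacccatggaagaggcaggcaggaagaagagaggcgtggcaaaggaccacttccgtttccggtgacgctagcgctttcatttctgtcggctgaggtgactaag
Counted from the start, Psmb5 has TGACGTCGC from -47 and Psmb6 has TGACGGAGC from -9. Psmd12 has GCTGTGTCA (the minus-strand reading) from -247 and TGAGCGGGC from -28, Psmd5 has GCGGTCTCA from -153, and the Psmb4 window holds no match to these letters. RefSeq promoters were matched for 29 of the 36 subunit genes. TGACNNNGC was found in 5 of them (17.2%), against 14.0% of 27025 genes, TGAGNNNGC in 11 (37.9%), against 19.9%, and either form in 14 (48.3%), against 30.8%. CCAAT, the core of the NF-Y site, was found in 12 (41.4%), against 41.1% of genes. These matches are a description of letters in the window and not of binding.

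H2O2 was compared with no H2O2 in each arm. The beta ring genes Psmb1 and Psmb7 rose in both arms, by 0.21 to 0.23 on the log2 scale. Psmb4 rose 1.21-fold in siNC, while Psmb2, Psmb3, Psmb5 and Psmb6 passed in neither arm. In siprdx1 cells 5 of the 35 subunits passed the test as higher (14.3%), where 2.48% of all 16432 genes tested did, and 0 passed as lower, where 5.39% did. In siNC cells 3 of 35 passed as higher (8.57%), where 2.36% of all genes did, and 0 passed as lower, where 4.59% did. DESeq2 and limma voom also called 0 lower in either arm, and an unadjusted edgeR p below 0.05 was reached as lower by 1 subunit in siprdx1 and 0 in siNC. The median log2 fold change over the subunits was 0.131 in siprdx1 and 0.149 in siNC, against 0.021 and 0.008 over all genes tested. Log2 fold changes were above 0 for 34 of 35 subunits in each arm; the exceptions were Psmc6 in siprdx1, at -0.22 ± 0.08 (SE, edgeR adjusted p = 0.0832), and Psma8 in siNC, at -0.005 ± 0.272 (SE, edgeR adjusted p = 0.995). The groups did not overlap, with H2O2 higher, for 16 subunits in siprdx1 (45.7%, against 10.5% of all genes) and for 23 in siNC (65.7%, against 12.5%).

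In the beta ring, Psmb1, a structural subunit, had 164, 166 and 167 CPM in siprdx1+H2O2, against 143, 140 and 140 CPM in siprdx1. It had 176, 163 and 166 CPM in siNC+H2O2, against 151, 138 and 147 CPM in siNC. Its groups did not overlap in either arm, and it rose 1.17-fold in siprdx1 (log2 0.23 ± 0.05, edgeR adjusted p = 0.00336) and 1.16-fold in siNC (0.21 ± 0.05, edgeR adjusted p = 0.00828). Psmb7, the trypsin-like subunit, had 111, 111 and 113 CPM in siprdx1+H2O2, against 99.0, 91.3 and 95.8 CPM in siprdx1. It had 113, 107 and 116 CPM in siNC+H2O2, against 96.8, 90.2 and 99.1 CPM in siNC. All 6 H2O2 libraries were above all 6 others, with log2 fold changes of 0.23 ± 0.05 in siprdx1 and 0.23 ± 0.05 in siNC (edgeR adjusted p = 0.00835 and 0.00895). Psmb4, a structural subunit, had 168, 175 and 176 CPM in siprdx1+H2O2, against 156, 149 and 149 CPM in siprdx1. Its levels were 169, 162 and 170 CPM in siNC+H2O2, against 152, 120 and 143 CPM in siNC. Here too the groups did not overlap, and Psmb4 rose in siNC (0.27 ± 0.07, edgeR adjusted p = 0.0177), with a value of 0.19 ± 0.07 that did not pass in siprdx1 (edgeR adjusted p = 0.0916). The other catalytic subunits did not pass: Psmb5 gave 0.13 ± 0.16 in siprdx1 and 0.19 ± 0.16 in siNC, and Psmb6 gave 0.09 ± 0.08 and 0.11 ± 0.08 (edgeR adjusted p from 0.440 to 0.698).

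In the alpha ring, Psma6 had 116, 109 and 122 CPM in siprdx1+H2O2, against 101, 89.5 and 101 CPM in siprdx1, and rose (log2 0.25 ± 0.06, edgeR adjusted p = 0.00904). In siNC its value was 0.19 ± 0.06 (edgeR adjusted p = 0.0537). The ATPase genes of the base had median log2 fold changes of 0.112 in siprdx1 and 0.145 in siNC, and the calls were outside them. In the lid, Psmd7, which pairs with the deubiquitinase Psmd14, had 112, 115 and 116 CPM in siprdx1+H2O2, against 105, 99.1 and 98.4 CPM in siprdx1, and rose there (0.18 ± 0.05, edgeR adjusted p = 0.0178). The fifth called in siprdx1 was the chaperone Psmd5 (0.21 ± 0.06, edgeR adjusted p = 0.0336), described below with fluvastatin.

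The SD of the log2 fold changes among subunits was 0.085 in siprdx1 and 0.06 in siNC, where their median SE was 0.064 in each arm. Shorter transcripts were higher in H2O2 libraries over all genes. Slopes on log2 length, per SD, were taken on log2 CPM minus each gene's mean over all libraries. They were -0.030 to -0.009 in siprdx1+H2O2, against 0.018 to 0.036 in siprdx1, and -0.042 to -0.015 in siNC+H2O2, against 0.018 to 0.072 in siNC. Subunit transcripts are short, with a median of 1591 bases against 3188 over genes averaging at least 100 counts. With offsets for GC content and length the subunits' median fell to 0.084 in siprdx1 and 0.095 in siNC, against 0.131 and 0.149 without them. Its distance from the median of all genes fell to 0.062 in siprdx1 and 0.084 in siNC, against 0.110 and 0.141, and 7 and 5 subunits passed as higher. The summed macrophage and fibroblast markers were higher with H2O2 in both arms. The macrophage markers took 8560 to 9170 CPM in siNC+H2O2 and 7400 to 8246 CPM in siNC, with 2 of 8 (Lyz2 and Cd14) called higher. In siprdx1+H2O2 they took 7257 to 7566 CPM, against 6891 to 7178 CPM in siprdx1, with 0 of 8 called. The fibroblast markers took 17260 to 18530 CPM in siprdx1+H2O2 and 15020 to 15770 CPM in siprdx1, with 3 of 5 (Col1a2, Col3a1 and Dcn) called higher. In siNC+H2O2 they took 18920 to 19620 CPM, against 17820 to 18840 CPM in siNC, with 0 of 5 called. None of these markers was at 0, and their part in the result was not tested. With the replicate number as a block 5 subunits passed in siNC. The siNC count fell to 0 without siNC replicate 2, to 1 without siNC+H2O2 replicate 1 or replicate 3, and became 6 without siNC replicate 1, and the siprdx1 count fell to 2 without siprdx1 replicate 2 and to 3 without siprdx1+H2O2 replicate 3. In fits to the groups compared alone, 0 of the 5 siprdx1 calls were kept: Psmb1 gave 0.22 and Psmb7 0.22 (edgeR adjusted p = 0.057 and 0.0837). In fits to all groups these 2 genes were called in siprdx1 without each single library in turn. In siprdx1, Psma6 was not called without siprdx1 replicate 2 or siprdx1+H2O2 replicate 3 (edgeR adjusted p = 0.0635 and 0.069), Psmd7 without siprdx1 replicate 2 or 3 or siprdx1+H2O2 replicate 3 (0.0646, 0.0799 and 0.0747), and Psmd5 without siprdx1 replicate 2 or 3 or siprdx1+H2O2 replicate 1 (0.148, 0.075 and 0.173). In siNC, leaving out siNC replicate 2 ended the calls of Psmb1, Psmb7 and Psmb4 (edgeR adjusted p = 0.0563, 0.0636 and 0.124), siNC+H2O2 replicate 1 those of Psmb1 and Psmb4 (0.0703 in each) and siNC+H2O2 replicate 3 those of Psmb7 and Psmb4 (0.0596 and 0.0727). With scaling by library size alone, all genes split into 234 higher and 1132 lower in siprdx1, against 407 and 886 with TMM.

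**Figure D3:**
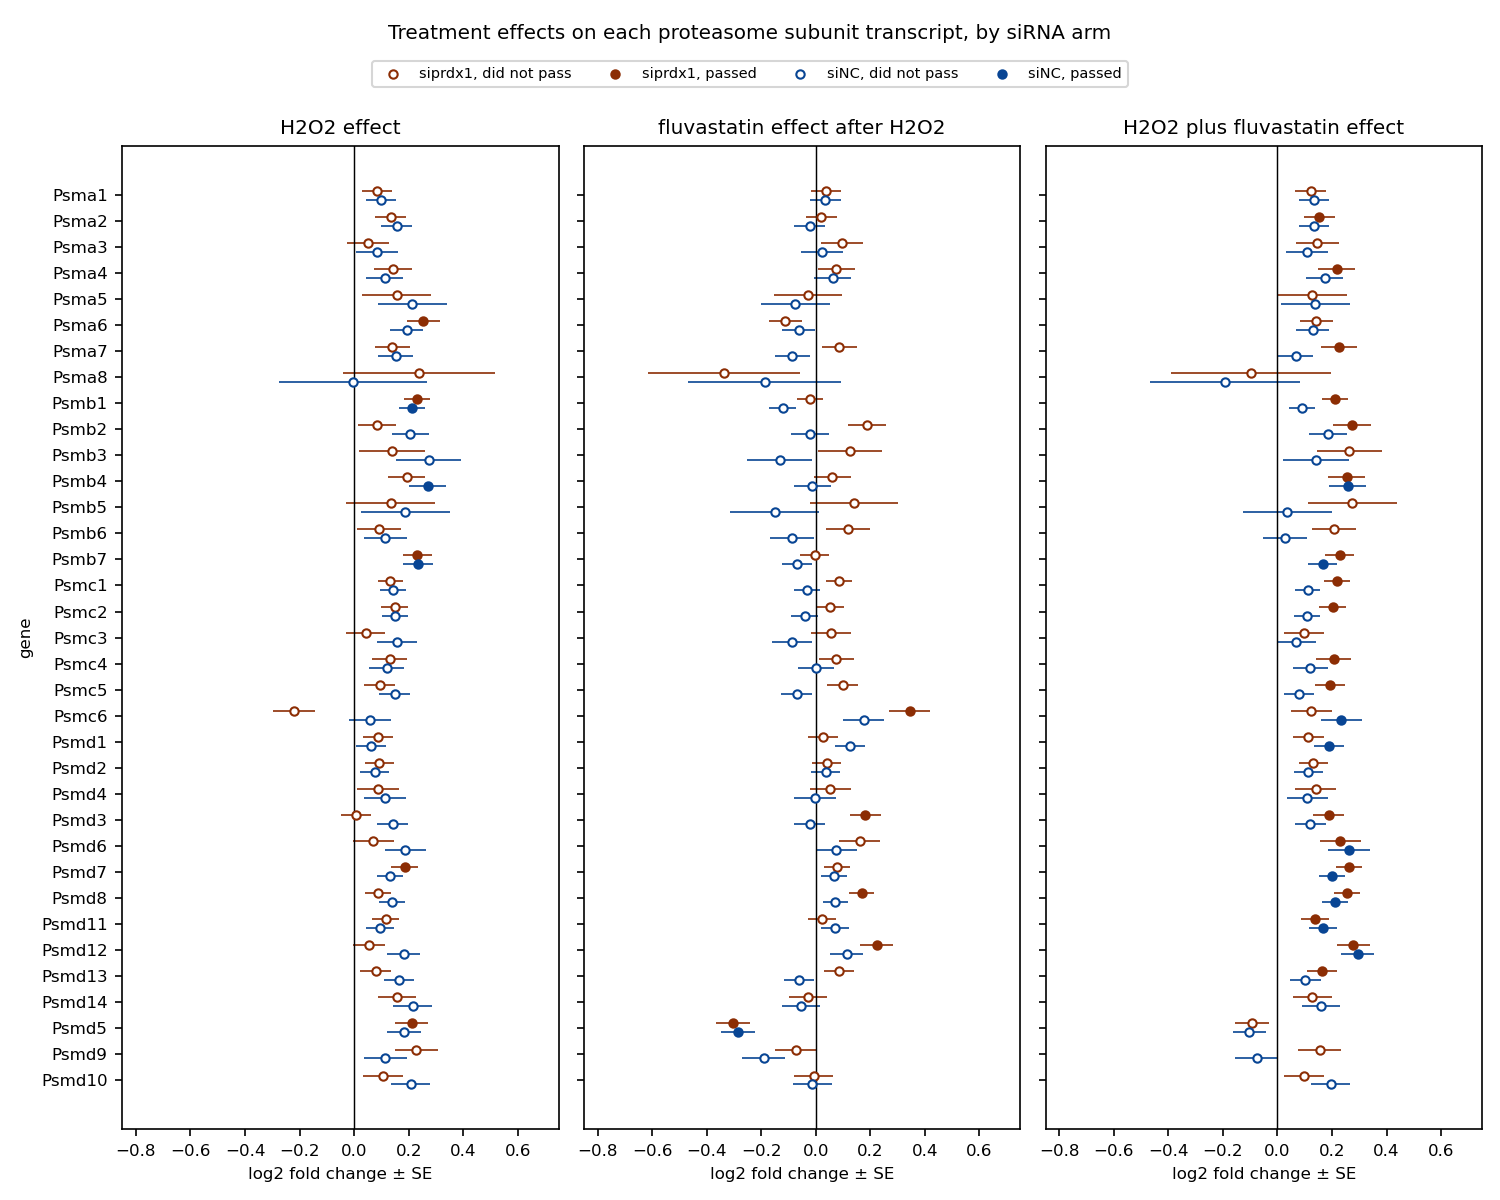
Log2 fold change of each of the 35 tested subunits (rows, by role from alpha ring to assembly chaperones) with its SE, for H2O2 against no H2O2, for fluvastatin after H2O2 against H2O2 alone and for H2O2 plus fluvastatin against neither. Dark red is siprdx1 and blue siNC, and filled points passed at an edgeR adjusted p below 0.05. Values in the left and right panels lie mostly right of 0, with 5 and 18 filled points in siprdx1 and 3 and 9 in siNC, and Psmd5 is the subunit that passed as lower in the middle panel.

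Fluvastatin after H2O2 was compared with H2O2 alone. The median log2 fold change over the subunits was 0.061 in siprdx1 and -0.022 in siNC, against -0.006 and -0.011 over all genes. Values were above 0 for 26 of 35 subunits in siprdx1 and 12 of 35 in siNC, where 49% and 48.3% of all genes were. In siprdx1 cells 4 of 35 passed as higher (11.4%) and 1 as lower (2.86%), where 12.6% and 11% of all genes tested did. In siNC cells none passed as higher by edgeR, DESeq2 or limma voom, with 2 subunits higher at an unadjusted edgeR p below 0.05, and 1 passed as lower (2.86%), where 13.5% and 11.3% of all genes did. The share passing as higher in siprdx1 was near that of all genes. The groups did not overlap for 9 subunits higher and 2 lower in siprdx1, where 17.7% of all genes stood apart in each direction, and for 2 higher and 5 lower in siNC, where 19.9% and 19% did.

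The chaperone Psmd5 was the subunit that fell, and it did so in both arms. It had 66.3, 68.3 and 71.2 CPM in siprdx1+H2O2+FV, 93.0, 80.4 and 80.7 CPM in siprdx1+H2O2 and 76.3, 69.2 and 74.0 CPM in siprdx1. In the control arm it had 65.1, 61.4 and 59.8 CPM in siNC+H2O2+FV, 78.0, 74.7 and 74.2 CPM in siNC+H2O2 and 67.5, 66.0 and 66.4 CPM in siNC. Its fluvastatin libraries were all below the H2O2 libraries of their arm, and below those without H2O2 in siNC, while they overlapped those without H2O2 in siprdx1. The fall was 0.81-fold in siprdx1 (log2 -0.30 ± 0.06, edgeR adjusted p = 0.00063) and 0.82-fold in siNC (-0.29 ± 0.06, edgeR adjusted p = 0.00132). It passed under every other setting tried in each arm, at -0.41 to -0.23 in siprdx1 and -0.39 to -0.26 in siNC. Against cells with neither treatment it did not pass (-0.09 ± 0.06 in siprdx1 and -0.10 ± 0.06 in siNC, edgeR adjusted p = 0.306 and 0.266). The other base chaperones gave values that did not pass: Psmd9 had -0.07 ± 0.08 in siprdx1 and -0.19 ± 0.08 in siNC, and Psmd10 had -0.01 ± 0.07 in each (edgeR adjusted p from 0.0823 to 0.951).

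The 4 subunits called higher with fluvastatin, a share near that of all genes, were called in siprdx1 and encode parts of the regulatory particle. Of that particle 6 ATPase genes and 3 other genes of the base and 8 genes of the lid were tested. Psmc6, an ATPase of the base, had 126, 124 and 132 CPM in siprdx1+H2O2+FV, 106, 91.6 and 104 CPM in siprdx1+H2O2 and 120, 106 and 126 CPM in siprdx1. It was low in the H2O2 group and, in the fluvastatin group, overlapped the group with neither treatment, and the rise over H2O2 alone was 1.27-fold (log2 0.34 ± 0.08, edgeR adjusted p = 0.00156). In siNC it had 133, 132 and 124 CPM in siNC+H2O2+FV, against 111, 128 and 105 CPM in siNC+H2O2, a value of 0.18 ± 0.08 that did not pass (edgeR adjusted p = 0.0971). The lid subunit Psmd12 had 101, 95.6 and 111 CPM in siprdx1+H2O2+FV, 90.3, 83.2 and 90.3 CPM in siprdx1+H2O2 and 85.8, 80.8 and 87.4 CPM in siprdx1. It rose over H2O2 alone by 0.22 ± 0.06 (edgeR adjusted p = 0.00723), with groups that did not overlap. Psmd8, also of the lid, had 358, 362 and 354 CPM in siprdx1+H2O2+FV, against 307, 327 and 322 CPM in siprdx1+H2O2, and rose by 0.17 ± 0.05 (edgeR adjusted p = 0.0106). The lid subunit Psmd3 had 142, 145 and 136 CPM against 118, 129 and 126 CPM in the same groups, and rose by 0.18 ± 0.06 (edgeR adjusted p = 0.0221). For both the fluvastatin libraries were all higher. In siNC Psmd12, Psmd8 and Psmd3 did not pass as higher. Their means were 96.85, 342 and 125.8 CPM in siNC+H2O2+FV, against 89.56, 325.3 and 127.8 CPM in siNC+H2O2.

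Among the catalytic subunits, Psmb5 had 46.0, 56.1 and 48.3 CPM in siprdx1+H2O2+FV and 37.5, 38.4 and 50.4 CPM in siNC+H2O2+FV, overlapping the H2O2 libraries of both arms. In siNC+H2O2 it had 46.3, 41.2 and 52.8 CPM. Its values were 0.14 ± 0.16 in siprdx1 and -0.15 ± 0.16 in siNC, those of Psmb6 0.12 ± 0.08 and -0.09 ± 0.08, and those of Psmb7 -0.004 ± 0.054 and -0.07 ± 0.05, and none passed (edgeR adjusted p from 0.334 to 0.969). The smooth muscle markers moved with fluvastatin: all 4 were called higher in both arms, and their sum was 1841 to 2080 CPM in siprdx1+H2O2+FV, against 1013 to 1139 CPM in siprdx1+H2O2, and 2170 to 2308 CPM in siNC+H2O2+FV, against 1224 to 1311 CPM in siNC+H2O2. Sox9, a Sertoli cell marker, also rose in both arms. The summed Sertoli markers took 33.6 to 39.3 CPM in siprdx1+H2O2+FV, against 12.8 to 14.0 CPM in siprdx1+H2O2. They took 32.4 to 36.8 CPM in siNC+H2O2+FV, against 13.6 to 14.7 CPM in siNC+H2O2. Nearly all of that sum was Sox9: group means were at most 0.766 CPM for Amh and 0.129 CPM for Rhox5, which was not tested. The part of either list in the result was not tested.

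Replicates 1 and 2 of siprdx1+H2O2, with the lowest and highest GC slope of that group, were also left out together, a setting chosen after seeing the data. That leaves the group 1 library, which is assumed to vary like the libraries of the other groups, so wider errors are built into the setting. Then 0 subunits passed as higher, with 0.30 for Psmc6, 0.18 for Psmd12, 0.15 for Psmd8 and 0.16 for Psmd3 (edgeR adjusted p = 0.0527, 0.162, 0.151 and 0.223). Psmd12 was not called without siprdx1+H2O2+FV replicate 3 (0.17, edgeR adjusted p = 0.0672), and Psmd3 was not called without siprdx1+H2O2 replicate 1 or siprdx1+H2O2+FV replicate 1 or 2 (edgeR adjusted p = 0.0846, 0.0665 and 0.0804). In siNC, 2 subunits passed as higher without siNC+H2O2 replicate 2. With library size alone 1 subunit passed as higher and 2 as lower in siprdx1 and 11 as lower in siNC, while all genes split into 1463 higher and 3634 lower in siprdx1 and 1474 and 3835 in siNC, against 2066 and 1810 and against 2226 and 1864 with TMM.

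**Figure D4:**
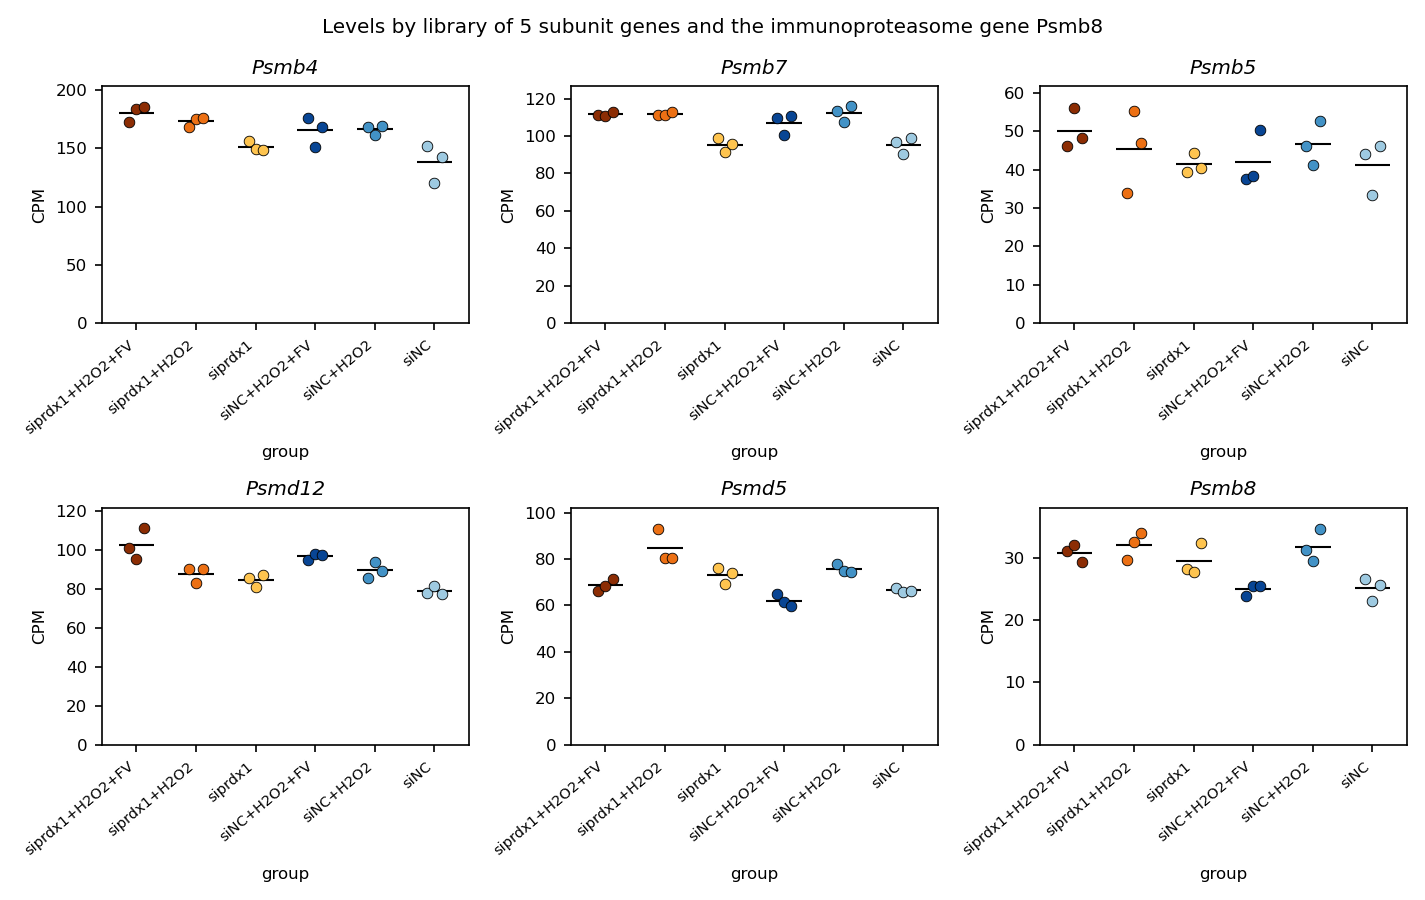
CPM in each library (points, with group means as lines) of the beta ring genes Psmb4, Psmb7 and Psmb5, the lid gene Psmd12, the chaperone gene Psmd5 and the immunoproteasome gene Psmb8. Psmb7 is higher in all H2O2 libraries of both arms than in the libraries with neither treatment, Psmd5 is lower with fluvastatin than with H2O2 alone, and Psmb8 with fluvastatin is at 23.9 to 25.6 CPM in siNC and at 29.3 to 32.1 CPM in siprdx1.

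H2O2 plus fluvastatin against neither treatment gave the most calls. The comparison shares the untreated libraries with that of H2O2 alone. In siprdx1 cells 18 of 35 subunits passed as higher (51.4%), where 12.7% of all genes did, and in siNC cells 9 (25.7%), where 11.3% did. As lower 0 passed in either arm by edgeR, DESeq2 or limma voom, and 0 at an unadjusted edgeR p below 0.05, where 12.9% of all genes passed in siprdx1 and 11.6% in siNC. The median over subunits was 0.188 in siprdx1 and 0.130 in siNC, against 0.005 and 0.001 over all genes. The groups did not overlap, with the treated higher, for 25 subunits in siprdx1 (71.4%, against 20% of all genes, with 20.3% of all genes apart as lower) and for 17 in siNC (48.6%, against 17.2%), while Psmd5 in siNC stood apart as lower (2.9%, against 18.4%).

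By role, the lid had the most calls. In siprdx1 7 of its 8 genes rose and in siNC 5 did, with medians of 0.209 and 0.183. In siprdx1 the calls of Psmd3, Psmd6, Psmd11 and Psmd13 were lost without some single libraries, as given below. In siprdx1 the medians of the catalytic and the structural beta ring genes, 0.228 and 0.259, were above that of the lid, and the roles were not tested against one another. Psmd12 had, beside the siprdx1 values above, 95, 98.2 and 97.3 CPM in siNC+H2O2+FV, against 78.1, 81.6 and 77.2 CPM in siNC. It rose 1.21-fold in siprdx1 (log2 0.28 ± 0.06, edgeR adjusted p = 0.00111) and 1.23-fold in siNC (0.29 ± 0.06, edgeR adjusted p = 0.000668). Psmd8 had 333, 342 and 351 CPM in siNC+H2O2+FV, against 309, 279 and 298 CPM in siNC, and in siprdx1 it had 298, 302 and 300 CPM. All its treated libraries were higher, by 0.26 ± 0.05 in siprdx1 and 0.21 ± 0.05 in siNC (edgeR adjusted p = 0.000239 and 0.00167). Psmd7 had 121, 123 and 119 CPM in siprdx1+H2O2+FV and 113, 112 and 120 CPM in siNC+H2O2+FV, above its 102, 101 and 98.5 CPM in siNC. It rose by 0.26 ± 0.05 in siprdx1 and 0.20 ± 0.05 in siNC (edgeR adjusted p = 0.000234 and 0.00345). Psmd14, the deubiquitinase that cuts chains from substrates, gave 0.13 ± 0.07 and 0.16 ± 0.07, and did not pass (edgeR adjusted p = 0.202 and 0.110).

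In the base, 4 of 6 ATPase genes rose in siprdx1 (Psmc1, Psmc2, Psmc4 and Psmc5) and Psmc6 did in siNC. Psmc1 had 156, 151 and 151 CPM in siprdx1+H2O2+FV, against 136, 126 and 132 CPM in siprdx1, with no overlap, and rose by 0.22 ± 0.05 (edgeR adjusted p = 0.00118). The scaffold subunit Psmd1 rose in siNC (0.19 ± 0.06, edgeR adjusted p = 0.0153), and the ubiquitin receptor Psmd4 gave 0.14 ± 0.08 in siprdx1 and 0.11 ± 0.08 in siNC (edgeR adjusted p = 0.195 and 0.345). In the alpha ring 3 of 8 rose in siprdx1 (Psma2, Psma4 and Psma7), with medians over the ring of 0.144 in siprdx1 and 0.132 in siNC. In the beta ring Psmb1, Psmb2, Psmb4 and Psmb7 rose in siprdx1, and Psmb4 and Psmb7 in siNC. Psmb4 had 173, 184 and 185 CPM in siprdx1+H2O2+FV and 176, 152 and 168 CPM in siNC+H2O2+FV, where the siNC group overlapped its untreated libraries. It rose by 0.25 ± 0.07 in siprdx1 and 0.26 ± 0.07 in siNC (edgeR adjusted p = 0.00792 and 0.00773). Psmb7 had 111, 111 and 113 CPM in siprdx1+H2O2+FV and 110, 100 and 111 CPM in siNC+H2O2+FV, all above its untreated libraries, and rose by 0.23 ± 0.05 and 0.17 ± 0.05 (edgeR adjusted p = 0.00293 and 0.0293). Psmb5 gave 0.28 ± 0.16 in siprdx1 and 0.04 ± 0.16 in siNC and Psmb6 0.21 ± 0.08 and 0.03 ± 0.08, and these did not pass (edgeR adjusted p from 0.0605 to 0.914). Both arms shared 7 calls, which are 38.9% of the siprdx1 calls and 77.8% of the siNC calls: Psmb4, Psmb7, Psmd6, Psmd7, Psmd8, Psmd11 and Psmd12. Without some single libraries, Psmd6 and Psmd11 lost their calls in both arms, and Psmb4 and Psmb7 in siNC.

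Markers of other cell types moved in this comparison too. Of the smooth muscle markers 3 of 4 rose in siprdx1 and 4 of 4 in siNC, with sums of 1841 to 2080 CPM in siprdx1+H2O2+FV, against 997 to 1087 CPM in siprdx1, and 2170 to 2308 CPM in siNC+H2O2+FV, against 1196 to 1369 CPM in siNC. Sox9 rose 3.22-fold in siprdx1 and 3.26-fold in siNC. Of the macrophage markers 4 of 8 (Ctss, Csf1r, Cd14 and Marco) rose in siprdx1, with sums of 7667 to 8059 CPM in siprdx1+H2O2+FV, against 6891 to 7178 CPM in siprdx1. In siNC 1 of 8 (Cd14) rose, with sums of 7529 to 7723 CPM in siNC+H2O2+FV, against 7400 to 8246 CPM in siNC. Of 5 fibroblast markers Pdgfra fell in both arms, while the others had values above 0 in both and did not pass. The median over that list was 0.112 in siprdx1 and 0.054 in siNC. Of the 6 Leydig markers tested Star rose and Nr5a1 fell in both arms, and the others did not pass. The part of these lists in the subunit calls was not tested.

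These calls rest on TMM scaling. With library size alone 0 subunits passed as higher and 1 as lower in siprdx1 and 1 passed in each direction in siNC, at subunit medians of 0.048 and 0.010. The distance from the median of all genes stayed at 0.183 and 0.129. It could not have changed, because rescaling a library shifts all its genes alike. All genes then split into 1153 higher and 4503 lower in siprdx1 and 1170 and 4003 in siNC, against 2079 and 2114 and against 1862 and 1913 with TMM. With offsets for GC content and length the subunits' median was 0.123 in siprdx1 and 0.100 in siNC, which is 0.137 and 0.116 above that of all genes. The siNC count fell to 4 without siNC+H2O2+FV replicate 1, and Psmb4 in siNC was not called without that library or without siNC replicate 2 (edgeR adjusted p = 0.0518 and 0.0551). In siNC, Psmb7 was not called without siNC replicate 2 or siNC+H2O2+FV replicate 1 or 3 (edgeR adjusted p = 0.124, 0.0994 and 0.111), Psmc6 without siNC replicate 1 or 3 or siNC+H2O2+FV replicate 1 or 2 (0.0972, 0.118, 0.0939 and 0.0849), and Psmd1 without siNC replicate 3 or siNC+H2O2+FV replicate 1 (0.0702 and 0.101). Psmb1, Psmb2, Psmb4, Psmb7, Psmc1, Psmc2, Psmd7, Psmd8 and Psmd12 in siprdx1 were called without each single library. Psma2 and Psmd11 lost their siprdx1 calls whichever library of the groups compared was left out. Psma2 was also not called there with limma voom or with GC and length offsets. The siprdx1 calls of Psma4, Psma7, Psmc4, Psmc5, Psmd3, Psmd6 and Psmd13 were each lost without at least 1 library. In siNC, Psmd6 and Psmd11 were not called without siNC+H2O2+FV replicate 1. Psmd12 in siNC passed under every setting tried.

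The effect of the Prdx1 knockdown itself was compared in each treatment. No subunit passed in any of the 3 comparisons by edgeR, DESeq2 or limma voom, with 5 subunits at an unadjusted edgeR p below 0.05 after H2O2 and fluvastatin, 2 after H2O2 and 1 without H2O2. Of all genes, 1.62%, 0.901% and 0.657% passed as higher in the same comparisons and 2.35%, 1.83% and 1.67% as lower. The medians over subunits were 0.078 after H2O2 and fluvastatin, -0.016 after H2O2 and 0.036 without H2O2, against 0.005, 0.004 and 0.003 over all genes. The smallest adjusted p was 0.121, for Psmd3 after H2O2 and fluvastatin, where it had the 142, 145 and 136 CPM of siprdx1+H2O2+FV against 117, 129 and 131 CPM in siNC+H2O2+FV and a value of 0.16 ± 0.06 (edgeR). In that comparison 9 subunits did not overlap, all higher in siprdx1+H2O2+FV (25.7%, against 10.8% of all genes, with 11.5% apart as lower). After H2O2, 2 stood apart as higher and 1 as lower (8.03% and 9.13% of all genes), and without H2O2 1 in each direction (7.09% and 8.19%). Among the 35 values after H2O2 and fluvastatin, the rank correlation with transcript GC content was 0.73, and with offsets for GC content and length the median fell to 0.036, against 0.003 over all genes, and 1 subunit passed as higher.

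Whether the treatments acted differently in the arms was tested as an interaction. No subunit passed by edgeR, DESeq2 or limma voom, with 3 at an unadjusted edgeR p below 0.05 for fluvastatin and 1 for H2O2, where 0.463% and 0.0426% of all genes passed as higher and 0.189% and 0.201% as lower. The smallest adjusted p was 0.287 for fluvastatin, for Psmd3 at 0.20 ± 0.08, and 0.607 for H2O2, for Psmc6 at -0.28 ± 0.11 (edgeR). The median over subunits was 0.075 for fluvastatin and -0.023 for H2O2, against 0.008 and 0.005 over all genes. Values were above 0 for 30 and 11 of the 35 subunits. For fluvastatin the rank correlation with transcript GC content was 0.61. With GC and length offsets that median was 0.041, against -0.006 over all genes, with 22 subunits above 0. The larger number of calls in siprdx1 after H2O2 plus fluvastatin was therefore not shown to be a difference between the arms; that interaction was not tested.

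The immunoproteasome subunits, which replace the catalytic subunits in immune cells and after interferon, followed another pattern. Psmb8, the counterpart of Psmb5, had 31.1, 32.1 and 29.3 CPM in siprdx1+H2O2+FV, 29.7, 32.6 and 34.1 CPM in siprdx1+H2O2 and 28.3, 27.8 and 32.4 CPM in siprdx1. It had 23.9, 25.6 and 25.5 CPM in siNC+H2O2+FV, 31.3, 29.5 and 34.7 CPM in siNC+H2O2 and 26.6, 23.1 and 25.6 CPM in siNC. In siNC the H2O2 libraries stood above all others, whereas the siprdx1 groups overlapped one another. Psmb8 rose with H2O2 in siNC (0.34 ± 0.08, edgeR adjusted p = 0.00987), and with fluvastatin after H2O2 all 3 genes fell in siNC: Psmb8 by 0.35 ± 0.08, Psmb9 by 0.47 ± 0.15 and Psmb10 by 0.27 ± 0.10 (edgeR adjusted p = 0.00237, 0.0216 and 0.0435). In siprdx1 their fluvastatin values were -0.06 ± 0.08, -0.03 ± 0.14 and -0.004 ± 0.092 and did not pass, and the difference between arms did not pass either (0.29 ± 0.11, 0.44 ± 0.21 and 0.26 ± 0.13, edgeR adjusted p from 0.276 to 0.413). After H2O2 and fluvastatin, Psmb8 (0.30 ± 0.08), Psmb10 (0.42 ± 0.09) and the activator subunit Psme1 (0.24 ± 0.06) were higher in siprdx1 than in siNC (edgeR adjusted p = 0.0352, 0.0119 and 0.028). With Sqstm1, described below, they were 4 of 41 tested genes that act with the proteasome (9.8%, against 1.62% of all genes). As lower 0 of the 41 passed there, where 2.35% of all genes did. Psmb8 per kilobase was 34.0% of Psmb5 in siprdx1+H2O2+FV and 32.8% in siNC+H2O2+FV, 39.1% and 37.6% in the H2O2 groups and 39.3% and 33.7% in siprdx1 and siNC.

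Macrophage markers stand beside these values: their sum was 7529 to 7723 CPM in siNC+H2O2+FV and 8560 to 9170 CPM in siNC+H2O2, with 3 of 8 lower (Lyz2, Ctss and Fcgr1) and Cd14 higher, and 7667 to 8059 CPM in siprdx1+H2O2+FV and 7257 to 7566 CPM in siprdx1+H2O2, with 3 of 8 higher. None of them was at 0, and their part in the immunoproteasome values was not tested. Single libraries changed most of these calls. Leaving out siNC replicate 2, or siNC+H2O2 replicate 3, ended the call of Psmb8 with H2O2 (0.29 and 0.27, edgeR adjusted p = 0.0686 and 0.0849), and the fall of Psmb9 was not called without siNC+H2O2 replicate 1 or siNC+H2O2+FV replicate 1 or 2 (edgeR adjusted p = 0.0642, 0.0913 and 0.0859). The fall of Psmb10 was not called without siNC+H2O2 replicate 1 or 3 or any 1 of the siNC+H2O2+FV libraries (edgeR adjusted p from 0.0632 to 0.139), while that of Psmb8 was called without each. The fall of Psmb10 was also not called with limma voom or with GC and length offsets (adjusted p = 0.0522 and 0.0921). In the comparison of arms, Psmb8 was called without siprdx1+H2O2+FV replicate 3 and lost its call without any other library (edgeR adjusted p from 0.0564 to 0.150), and Psme1 without siNC+H2O2+FV replicate 3 and lost its call without any other library (from 0.0723 to 0.126). Psmb10 was not called there without siNC+H2O2+FV replicate 1 or siprdx1+H2O2+FV replicate 2 or 3 (0.0565, 0.065 and 0.0577).

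Of 41 tested genes that act with the proteasome, 7 rose and 2 (Ecpas and Ngly1) fell with fluvastatin after H2O2 in siprdx1, and 6 rose and 4 (the immunoproteasome genes above and Ubb) fell in siNC. The shares that rose, 17.1% in siprdx1 and 14.6% in siNC, are near the 12.6% and 13.5% of all genes, and those that fell, 4.88% and 9.76%, are below the 11% and 11.3% of all genes. Ecpas was not called without siprdx1+H2O2 replicate 1 or siprdx1+H2O2+FV replicate 2 (edgeR adjusted p = 0.142 and 0.0842), nor Ngly1 without siprdx1+H2O2 replicate 1 or 3 or siprdx1+H2O2+FV replicate 2 or 3 (from 0.0506 to 0.162). With H2O2 plus fluvastatin 10 rose (24.4%, against 12.7% of all genes) and 2 fell (4.88%, against 12.9%) in siprdx1, and 9 rose (22%, against 11.3%) and 0 fell by edgeR in siNC, also at an unadjusted p below 0.05. Those that fell were Ecpas, a proteasome-binding scaffold (-0.25 ± 0.06, edgeR adjusted p = 0.00509), and Ddi2, the protease that activates Nfe2l1 (-0.17 ± 0.05, edgeR adjusted p = 0.0154). Ddi2 was not called without siprdx1 replicate 1 or 2 or siprdx1+H2O2+FV replicate 1 (edgeR adjusted p = 0.0826, 0.0639 and 0.0644). Sqstm1, a ubiquitin receptor of autophagy, had 1326, 1318 and 1258 CPM in siprdx1+H2O2+FV, 923, 963 and 944 CPM in siprdx1+H2O2 and 853, 843 and 815 CPM in siprdx1. In siNC it had 1172, 1108 and 1147 CPM in siNC+H2O2+FV, 855, 783 and 839 CPM in siNC+H2O2 and 760, 708 and 697 CPM in siNC. The groups of each arm did not overlap, and it rose with fluvastatin by 0.46 ± 0.05 in siprdx1 and 0.47 ± 0.05 in siNC (edgeR adjusted p = 9.76e-08 and 9.8e-08). Sqstm1 was also called higher in siprdx1 than in siNC in each treatment. After H2O2 and without H2O2 it was the 1 gene of the 41 called between arms (2.4%, against 0.901% and 0.657% of all genes). Zfand5 and Zfand2a, zinc-finger proteins that bind the proteasome under stress, rose with fluvastatin by 0.73 ± 0.08 and 0.66 ± 0.07 in siprdx1 and by 0.58 ± 0.08 and 0.35 ± 0.07 in siNC. Adrm1, the ubiquitin receptor that docks on the base, rose in siprdx1 by 0.33 ± 0.09 (edgeR adjusted p = 0.0067). These fluvastatin calls of Sqstm1, Zfand5, Zfand2a and Adrm1 held without each single library.

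The regulators divided. Nfe2l2, the factor of the antioxidant response, had 329, 313 and 332 CPM in siprdx1+H2O2+FV and 324, 348 and 328 CPM in siNC+H2O2+FV, against 268, 245 and 255 CPM in siprdx1+H2O2 and 275, 283 and 262 CPM in siNC+H2O2. It rose with fluvastatin by 0.34 ± 0.05 in siprdx1 and 0.29 ± 0.05 in siNC (edgeR adjusted p = 1.75e-05 and 0.000175). Nfe2l1 had group means of 376, 394 and 388 CPM in siprdx1+H2O2+FV, siprdx1+H2O2 and siprdx1, and of 389, 404 and 404 CPM in siNC+H2O2+FV, siNC+H2O2 and siNC, and passed in none of the comparisons. Of the core assembly chaperones, Pomp rose with H2O2 plus fluvastatin in siprdx1 (0.19 ± 0.07, edgeR adjusted p = 0.0343), and was not called without siprdx1 replicate 2 or 3 or any 1 of the siprdx1+H2O2+FV libraries (from 0.054 to 0.173).

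Some counts are uncertain. Gm13835 is identical to Psma3 over 665 bases and held 70.4% as many reads, and near copies of Psma5, Psmb3, Psmd11 and Psma4 held 12.8%, 8.36%, 8.67% and 5.02% of the reads of their genes, so the counting could have split reads between them. The copies of Psmb5 held 2.57%. Exons of 9 subunit genes overlap another gene, among them Psmb7 with Nek6 over 405 bases, Psmd13 with Sirt3 over 342 bases and Psmd9 with Gm26745 over 1849 bases, all on the opposite strand. How the counting used strand is not given in the sources used here, so reads of the partners cannot be told apart. No near copy and no overlap was found for 18 of the 36 genes, among them Psmb4, Psmd5, Psmd7, Psmd8, Psmd12 and Psmc6.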

How the data were processed

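RNA-seq counts were analysed for 18 libraries of cultured mouse cells. The authors deposited raw read counts per gene for 55487 genes. The submitters' processing notes name HISAT2, HTSeq and mm10; the annotation and the strand setting are not given in the sources used here, and the labels' protocols name a stranded kit. Coordinates and transcript lengths came from GENCODE vM21 (GRCm38), promoters from RefSeq (GRCm38.p6).

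All counts were fitted with edgeR 4.0.16 in R 4.3.3 (TMM, filterByExpr, robust quasi-likelihood; 16432 genes, 6 group means, 12 residual degrees of freedom), and p-values were Benjamini-Hochberg adjusted over all genes per contrast at 0.05. The subunit genes, the gene lists and the tests were chosen with earlier results of these data known. In full were described the catalytic subunits and, per contrast, up to 4 subunits per direction with the smallest adjusted p among those that passed; other pathway genes came from 7 lists. Alternatives were RLE factors, library size alone, no low-count filter, a replicate block, fits to the groups compared, limma voom (limma 3.58.1), DESeq2 1.42.0 and leaving out each library; GC and length offsets, and leaving out replicates 1 and 2 of siprdx1+H2O2 together (the lowest and highest GC slope of the group), were added after seeing the data. The steps were tested on simulated data. Near copies were sought with blastn 2.17.0 (at least 90% identity over 300 bases).

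The labels do not say what a replicate number shares. Libraries with the same number moved together (every pair's correlation over 0.1) for H2O2 in siNC (0.209, 0.347 and 0.275) and fluvastatin in siNC (0.185, 0.157 and 0.387). They also did for H2O2 plus fluvastatin in siprdx1 (0.117, 0.426 and 0.177). In every other comparison at least 1 pair was below 0.1, as for knockdown without H2O2 (-0.057, -0.304 and -0.154). Libraries with unlike numbers were not correlated as a baseline. That pairing comes from the data. The chi-square statistic of each replicate pair, divided by its degrees of freedom, was 2.74 to 17.1, so no pair agreed within sampling noise.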

Additional observations from a re-analysis of the deposited data

How the results depend on the processing

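Of 41 calls of a subunit as higher or lower, 3 were kept under every alternative: Psmd5 with fluvastatin in both arms and Psmd12 with H2O2 plus fluvastatin in siNC. All 41 were kept with the replicate block and with DESeq2, 40 with RLE factors, 40 with limma voom, 39 with GC and length offsets, 34 without the low-count filter, 32 in fits to the groups compared and 10 with library size alone; the causes of the losses were not tested. The replicate block changed the count of subunits by over 1.5 times once, to 5 higher for H2O2 in siNC.

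For H2O2 in siNC, 3 subunits were higher in the reported fit, 5 in fits to the groups compared, 8 with DESeq2, 5 with GC and length offsets and 0 to 6 with 1 library left out. For H2O2 in siprdx1 there were 5 higher as reported, 3 higher and 1 lower with library size alone, 0 higher in fits to the groups compared, 1 higher without replicates 1 and 2 of siprdx1+H2O2 (which leaves that group 1 library) and 1 lower without the low-count filter, and 2 to 6 higher and 0 to 1 lower with 1 library left out. For fluvastatin in siNC, 3 were higher with GC and length offsets, 11 lower with library size alone and 0 to 2 higher with 1 library left out, against 0 higher and 1 lower as reported. For fluvastatin in siprdx1, library size alone gave 1 higher and 2 lower, GC and length offsets 2 lower and the fit without replicates 1 and 2 of siprdx1+H2O2 0 higher, against 4 and 1 as reported. For H2O2 plus fluvastatin, library size alone gave 1 higher and 1 lower in siNC and 0 higher and 1 lower in siprdx1, GC and length offsets gave 14 higher and 1 lower in siNC, and leaving out 1 library gave 4 to 10 higher in siNC and 12 to 14 in siprdx1. For knockdown after H2O2 and fluvastatin, 2 were higher without the low-count filter and 1 with GC and length offsets. The causes were not tested.

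Signs were followed gene by gene for called subunits and for Psmb5, Psmb6 and Psmb7 only. Some of these values turned sign, and of these Psmd11 alone was called as reported. Over all 35 subunits, library size alone took those above 0 with fluvastatin from 26 to 9 in siprdx1 and from 12 to 3 in siNC. With H2O2 plus fluvastatin it took them from 33 to 24 in siprdx1 and from 32 to 19 in siNC. With 1 library left out, Psmb5 ranged from -0.029 to 0.2991 with H2O2 in siprdx1, from -0.0222 to 0.3045 with fluvastatin in siprdx1 and from -0.11 to 0.1287 with H2O2 plus fluvastatin in siNC. Psmb7 ranged from -0.0091 to 0.006 with fluvastatin in siprdx1, and Psmb6 from -0.0759 to 0.1006 with H2O2 plus fluvastatin in siNC. Psmb7 gave 0.0017 with fluvastatin in siprdx1 in the fit to the groups compared, and Psmb6 gave 0.0061 with fluvastatin in siNC with GC and length offsets. With library size alone, H2O2 plus fluvastatin gave -0.0926 for Psmb6 and -0.0838 for Psmb5 in siNC and -0.0017 for Psmd11 in siprdx1. With 3 libraries per group, the subunits' median SE was 0.064 on the log2 scale.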
